A study of Homo sapiens with 12 samples.

Results

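The genes described here are the members of the WNT signalling pathway that could be read from their symbols in the deposited expression table. They comprise every WNT ligand, every frizzled (FZD) receptor, the SFRP and DKK secreted antagonists, and 15 further symbols named one by one, of which NKD2 was not analysed here. The rule took 51 of the 31654 genes in the table by symbol and uses no measured value, but the members were chosen with earlier results of these data known. Of these, 31 reached 1 FPKM in at least 3 libraries and were tested together with all other genes that did, 15449 in total. FPKM (fragments per kilobase of transcript relative to the mapped fragments of the library) is a level that allows for transcript length and sequencing depth.

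The study sequenced RNA of 4 human cell lines, with 12 libraries in total and 3 for each line. U251MG and U87MG are established lines grown from glioblastoma, the most aggressive primary tumour of the adult brain. U251TR and U87TR are their sub-lines that became resistant to temozolomide, the alkylating drug given as standard treatment, after being exposed again and again to rising amounts of it in culture. All 4 lines were grown in DMEM with serum, and the labels do not say whether the drug was present when RNA was taken.

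Each parent has 1 resistant line, so resistance and anything else that changed while that line was derived cannot be told apart. Nothing in the labels says that replicate libraries stem from separate cultures, so p-values measure the spread between these libraries only, which may be technical. By their codes in the labels, the 3 U87TR libraries were numbered apart from the remaining 9, so in the U87 pair this numbering and resistance cannot be told apart. In bulk RNA, fewer cells expressing a gene and less RNA of it per cell cannot be told apart.

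WNT ligands are secreted, lipid-modified proteins that bind FZD receptors together with the co-receptors LRP5 or LRP6. In the canonical branch this stops a destruction complex built on AXIN1 from degrading beta-catenin (CTNNB1), which enters the nucleus and acts with the TCF/LEF transcription factors, and AXIN2, RNF43, ZNRF3, NKD1 and LGR5 are known feedback targets. WNT5A and WNT5B act mostly through branches that do not need beta-catenin, and in glioblastoma WNT5A is known for its link to invasive growth.

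Libraries of a line agreed closely, with rank correlations over the 15449 genes tested of 0.990 to 0.993 for most pairs. U251MG replicate 2 stood apart from its replicates 1 and 3 (0.977 and 0.978), and U87MG replicate 3 did so less (0.983 and 0.987). Between 13135 and 14122 genes reached 1 FPKM in a library. The table holds no counts, the read depth is unknown, and counting error could not be computed. Of 10 glioma and neural lineage markers, VIM was high in every line (group means from 817.1 to 4917 FPKM), whereas AQP4 was at or near 0 in all 4 lines. SOX2 was at 0 in U87MG and at 0.203 FPKM in U87TR, against 219.8 in U251MG and 113.3 in U251TR. Other markers of this list stood apart between U251MG and U251TR without a common direction: mean GFAP was 22.8 and 396.2 FPKM and CHI3L1 2.01 and 2637, whereas S100B was 9.87 and 1.89 and NES 195.6 and 42.6.

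Markers of other cell types moved with resistance in both pairs. Between U87MG and U87TR the summed level of 6 immune markers was 201.1 to 221.0 FPKM in U87MG and 329.6 to 358.1 in U87TR. Most of it was CD68 (means 195.7 and 332.0 FPKM), and CSF1R was at 12.67 and 14.42. PTPRC and CD3E of the same list were at or near 0 in every line, and CD14 and ITGAM had means of at most 0.49 FPKM. The sum of 5 fibroblast and pericyte markers was 105.9 to 205.3 FPKM in U87MG and 47.98 to 56.40 in U87TR. In U87MG most of that sum was COL1A1 (mean 123.7 FPKM, and 18.39 in U87TR), while LUM (5.27 and 11.94) and PDGFRB (10.95 and 18.5) of the same list were higher in U87TR. In the U251 pair the sum of 5 neuron markers was 4.31 to 4.75 FPKM in U251MG and 20.98 to 28.11 in U251TR, nearly all of it MAP2, with RBFOX3 and STMN2 at or near 0. The sum of 4 endothelial markers was 9.50 to 10.52 FPKM in U251MG and 17.88 to 18.62 in U251TR, with TEK near 0, and the fibroblast sum was 4.76 to 8.19 and 7.16 to 9.90, with LUM at 0. Their part in the WNT gene results was not tested.

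Promoter sequence was taken for 34 of the 51 genes from RefSeq (GRCh38.p14), as 300 bases from 250 before to 50 after each annotated start, 41 promoters in all. The core TCF/LEF motif CTTTGA, searched on both strands, was present in 12.9% of the 35116 promoters in the table, and 1.29% held 2 or more matches. Among the WNT genes it was found in the promoter of DKK1 alone, which held 2 matches. A match describes the letters in this window and is not a measured binding site. The first sequence below is the 250 bases before the DKK1 start, shown because DKK1 is a secreted antagonist and the strongest expressed one in U251MG; the motif is in capitals, once on the opposite strand (TCAAAG, bases -149 to -144) and once on the gene's strand (bases -95 to -90). The 3 ligand promoters after it are those of the paralogs WNT5A and WNT5B, whose resistance changes differed between the lines, and of WNT3, the ligand that rose in both resistant lines. Their CG pairs are in capitals, 18 in WNT5A, 7 in WNT5B and 26 in WNT3, and of 2 annotated starts of WNT5A and of WNT5B the one farther downstream was taken. Over all 41 promoters of 300 bases the count of CG pairs ran from 0 to 53 with a median of 25, against a median of 14 in the whole table.
DKK1 (chr10:52314031-52314280, plus strand): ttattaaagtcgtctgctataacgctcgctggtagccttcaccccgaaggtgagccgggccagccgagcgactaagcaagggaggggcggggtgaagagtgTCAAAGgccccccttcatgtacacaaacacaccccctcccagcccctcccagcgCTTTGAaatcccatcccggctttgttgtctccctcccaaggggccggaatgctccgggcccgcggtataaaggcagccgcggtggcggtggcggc
WNT5A (chr3:55481399-55481648, minus strand): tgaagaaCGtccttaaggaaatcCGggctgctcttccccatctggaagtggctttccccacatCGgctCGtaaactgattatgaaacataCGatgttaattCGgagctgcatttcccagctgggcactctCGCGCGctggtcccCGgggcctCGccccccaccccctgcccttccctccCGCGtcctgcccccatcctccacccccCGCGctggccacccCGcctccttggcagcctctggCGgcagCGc
WNT5B (chr12:1628981-1629230, plus strand): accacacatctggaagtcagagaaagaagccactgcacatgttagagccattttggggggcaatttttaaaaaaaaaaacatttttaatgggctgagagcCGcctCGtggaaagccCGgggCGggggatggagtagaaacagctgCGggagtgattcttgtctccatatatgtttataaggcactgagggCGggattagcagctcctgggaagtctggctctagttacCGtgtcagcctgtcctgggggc
WNT3 (chr17:46818693-46818942, minus strand): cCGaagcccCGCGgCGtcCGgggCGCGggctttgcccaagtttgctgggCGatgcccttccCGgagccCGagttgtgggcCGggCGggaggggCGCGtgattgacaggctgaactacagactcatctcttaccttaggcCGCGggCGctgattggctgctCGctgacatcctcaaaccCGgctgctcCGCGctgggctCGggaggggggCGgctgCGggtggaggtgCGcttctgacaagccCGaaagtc

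The first question was how far the parental lines already differed in this pathway, and they differed in nearly every gene that could be tested. Between U87MG and U251MG, 28 of the 31 tested genes passed an adjusted p of 0.05, 9 of them higher in U87MG and 19 lower, where 72.3% of all genes tested passed, 32.2% higher and 40.1% lower. The median log2 difference was -0.41 over the 31 genes and -0.09 over all genes tested. All log2 values here are differences of log2(FPKM + 1), from limma with Benjamini-Hochberg adjustment over all 15449 genes, and the added 1 FPKM understates the change of weakly expressed genes. The 3 genes that did not pass were AXIN2, FZD2 and LGR4.

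**Figure D1:**
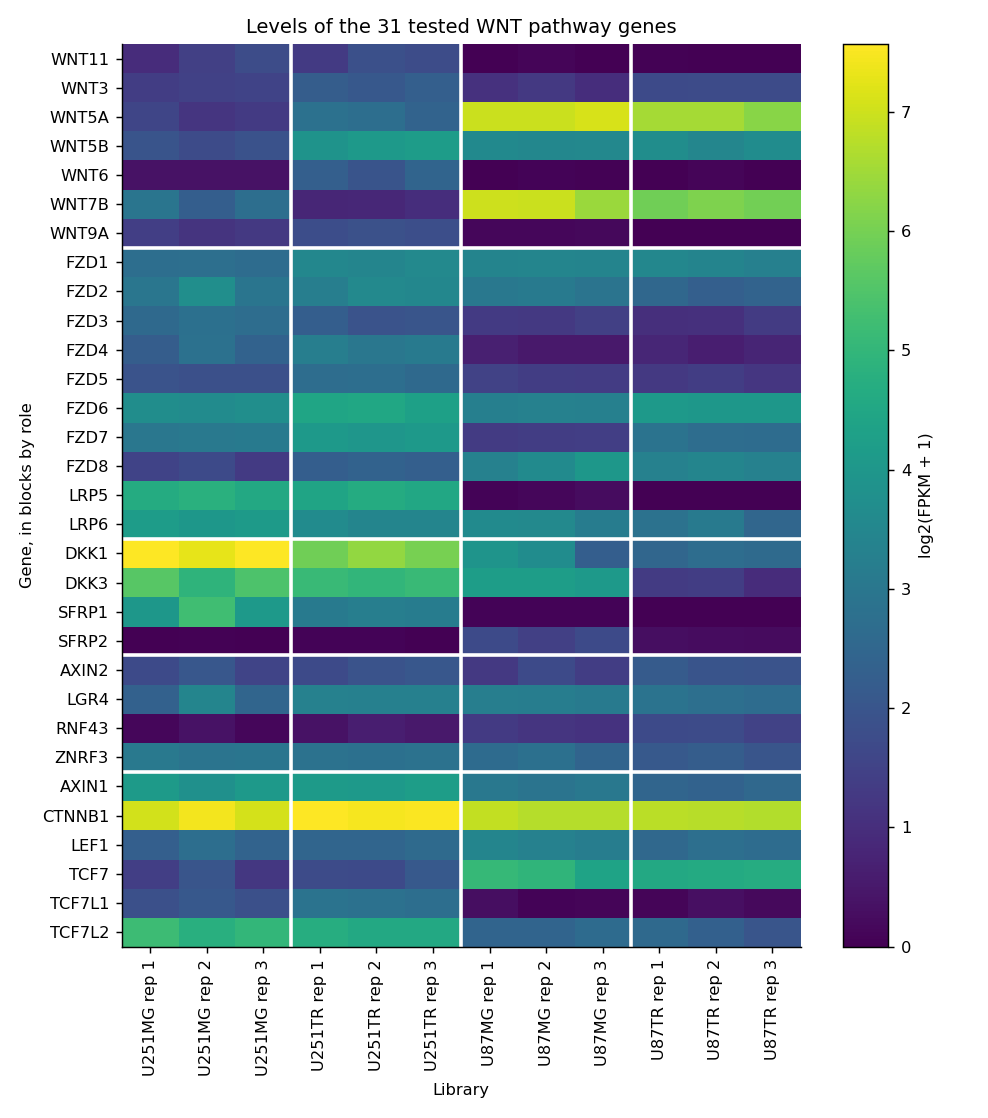
Levels of the 31 tested WNT pathway genes in the 12 libraries, as log2(FPKM + 1) on a colour scale, with genes in rows grouped by role and libraries in columns grouped by line. WNT5A, WNT7B and TCF7 are brighter in the U87 columns, whereas DKK1, SFRP1, LRP5 and TCF7L2 are brighter in the U251 columns, and CTNNB1 is bright in all.

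WNT5A and WNT7B set the ligand levels of the parental lines apart. The 19 WNT genes summed to 16.8 ± 1.85 FPKM in U251MG (SD, n = 3) and to 254.1 ± 16.6 FPKM in U87MG (SD, n = 3). In U87MG, WNT5A and WNT7B made up 94.7% ± 0.223 of that sum (SD, n = 3), against 40.8% ± 6.69 in U251MG. WNT7B, a canonical ligand of the developing brain and its vessels, read 6.71, 3.75 and 5.66 FPKM in the 3 U251MG libraries and 126.31, 124.79 and 84.99 in those of U87MG. WNT5A read 1.98, 1.26 and 1.42 FPKM in U251MG and 125.06, 123.99 and 137.09 in U87MG. For both ligands the lines were far apart with no overlap, by 5.68 on the log2 scale for WNT5A (SE 0.14, adjusted p = 4.43e-12) and 4.15 for WNT7B (SE 0.18, adjusted p = 7.86e-10).

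On the receiving side the clearest contrast was LRP5, 1 of the pair of co-receptors of the canonical branch. It read 24.45, 27.18 and 22.89 FPKM in U251MG and 20.62, 24.39 and 22.25 in U251TR. In U87MG it read 0.06, 0.09 and 0.20 FPKM, and in U87TR 0.01, 0.02 and 0.01. LRP5 was thus close to absent in both U87 lines, with a log2 difference of -4.53 between U87MG and U251MG (SE 0.10, adjusted p = 2.56e-12). Its level did not pass the test in either resistant line (log2 change -0.14 in each, adjusted p = 0.267 in U251TR and 0.355 in U87TR). The U87MG and U87TR libraries did not overlap, the parental mean was 8.75 times the resistant one, and with a pseudocount of 0.1 FPKM the fall passed (-0.88, adjusted p = 0.0105). In U251TR it passed with median-of-ratios factors (-0.27, adjusted p = 0.0366).

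The TCF/LEF factors, which carry beta-catenin to DNA, had summed levels of 40.5 ± 2.66 FPKM in U251MG and 41.4 ± 6.92 in U87MG (SD, n = 3 each) but were made up of other members. TCF7L2 was 76.4% ± 6.71 of the sum in U251MG (SD, n = 3), and TCF7 was 66.1% ± 5.51 of it in U87MG (SD, n = 3). TCF7L2 read 35.31, 26.35 and 31.49 FPKM in U251MG against 4.42, 4.38 and 5.32 in U87MG, a log2 difference of -2.48 (SE 0.15, adjusted p = 2.02e-08). TCF7 read 1.66, 3.01 and 1.32 FPKM in U251MG against 32.70, 29.93 and 20.11 in U87MG, 3.27 higher (SE 0.21, adjusted p = 3.73e-08). LEF1 was higher in U87MG as well (log2 difference 0.83) and TCF7L1 lower (-1.78). Of the 4 tested antagonists, DKK1, DKK3 and SFRP1 were lower in U87MG (log2 differences -4.17, -1.15 and -4.37) and SFRP2 was higher (1.60).

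The second question was what changed in U251TR against U251MG. Here 18 of the 31 tested genes passed, 13 higher and 5 lower, where 53.2% of all genes tested passed, 33.6% higher and 19.6% lower. The median log2 change was 0.29 over the 31 genes and 0.10 over all genes tested. Ligands and receptors, which are 17 of the 31 tested genes, made up 11 of the 13 rises and 3 of the 5 falls (WNT7B, FZD3 and LRP6), and the remaining 2 falls were DKK1 and SFRP1. That median of all genes is a matter of scaling: it moved by 0.10 when each library was rescaled to 1 sum (TPM) and by -0.11 after quantile normalization. The share of higher genes among all genes called was then 72.1% and 49.3%, against 63.2% as deposited and 51.3% with median-of-ratios factors, while the WNT genes were called 15 higher and 5 lower, 13 and 7, and 12 and 7 in that order of scalings (TPM, quantile, median of ratios).

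The third question was the same for U87TR against U87MG, where 14 of the 31 tested genes passed, 5 higher and 9 lower. Of all genes tested 27.8% passed, 10.6% higher and 17.2% lower. The median log2 change was -0.14 over the 31 genes and -0.05 over all. The WNT genes were called 5 higher and 9 lower under each of the other 3 scalings too, although the share of higher genes among all genes called moved from 38.1% to 49.0% with median-of-ratios factors and 48.8% after quantile normalization.

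**Figure D2:**
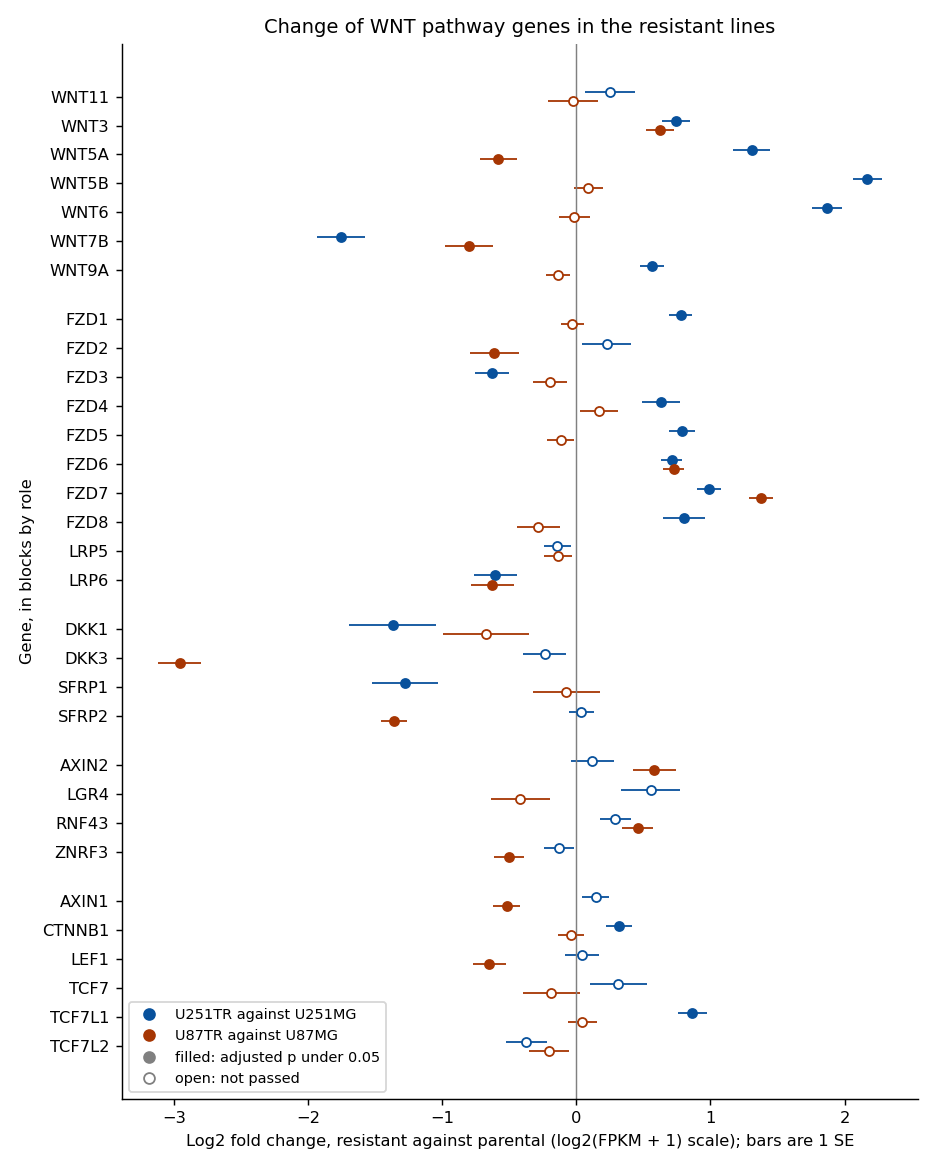
Change of each of the 31 tested WNT pathway genes (rows, in blocks by role) in U251TR against U251MG (blue) and U87TR against U87MG (red), as a log2 difference of FPKM + 1 on the horizontal axis with bars of 1 SE; filled points passed an adjusted p of 0.05. Both points are filled and right of 0 for FZD6, FZD7 and WNT3, both are filled and left of 0 for LRP6 and WNT7B, and WNT5A has a filled point on each side.

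Of these genes 3 rose in both resistant lines (FZD6, FZD7 and WNT3), 2 fell in both (LRP6 and WNT7B), and WNT5A rose in U251TR and fell in U87TR. Another 9 rose and 3 fell in U251TR without passing the test in U87TR, 2 rose and 6 fell in U87TR without passing it in U251TR, and 5 passed in neither (LGR4, LRP5, TCF7, TCF7L2 and WNT11). Over all genes tested 53.2% passed in U251TR and 27.8% in U87TR. How many of all genes fall in each of these classes was not counted, so no excess of shared changes can be read from them. The difference between the resistance changes was tested directly: it passed in 18 of the 31 genes, with the U87 change the higher in 3 and the lower in 15, where 47.6% of all genes tested passed, 15.4% higher and 32.1% lower. After quantile normalization the split was 5 and 11, where 46.2% of all genes tested passed and 48.6% of those were higher.

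Among the ligands, 5 of 7 tested rose and 1 fell in U251TR, where 53.2% of all genes tested passed, and in U87TR 1 rose and 2 fell, where 27.8% passed. WNT6, 1 of the 5 that rose, met the filter through the U251TR libraries alone. The summed level of the 19 WNT genes was 35.7 ± 2.01 FPKM in U251TR against 16.8 ± 1.85 in its parent, and 164.8 ± 11.8 in U87TR against 254.1 ± 16.6 (SD, n = 3 each). The 12 ligand genes left untested stayed at or below 1.12 FPKM in every library. In a fit with no filter, where 28.5% of all genes passed, WNT10B (-0.38, adjusted p = 0.0182) and WNT8B (-0.22, adjusted p = 0.0297) were lower in U251TR.

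WNT5B, a ligand of the branch that does not need beta-catenin, had the largest ligand rise on the log2(FPKM + 1) scale, although as a ratio of group means WNT6 rose more (13.0-fold against 5.82-fold). It read 2.94, 2.33 and 2.77 FPKM in U251MG and 13.70, 15.84 and 17.23 in U251TR. Every resistant library lay above every parental one, a log2 change of 2.17 (SE 0.11, adjusted p = 1.75e-08). In the U87 libraries it read 11.13, 10.25 and 10.50 FPKM in the parent and 12.23, 10.10 and 11.89 in U87TR, ranges that overlap (log2 change 0.09, SE 0.11, adjusted p = 0.602). The test of the difference between the pairs gave -2.08 (SE 0.16, adjusted p = 9.03e-07). WNT5B became the leading WNT transcript of U251TR, at 43.5% ± 2.69 of the summed ligand level (SD, n = 3) against 16.0% ± 0.135 in U251MG.

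WNT5A, its close relative, read 6.04, 5.63 and 4.29 FPKM in U251TR, all above the 1.26 to 1.98 FPKM of U251MG, a log2 change of 1.31 (SE 0.14, adjusted p = 8.12e-06). In U87TR it read 92.43, 91.91 and 73.54 FPKM, all below the 123.99 to 137.09 FPKM of U87MG. There the log2 change was -0.58 (SE 0.14, adjusted p = 0.00784), and the changes differed between the lines (-1.89, SE 0.19, adjusted p = 1.09e-05). The U87TR libraries still lay far above those of U251TR.

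WNT6, a canonical ligand, stayed under 1 FPKM in 3 of the 4 lines. It read 0.28, 0.30 and 0.28 FPKM in U251MG, 3.90, 2.94 and 4.37 in U251TR, and no more than 0.07 in any U87 library. The 13.0-fold ratio of the U251 group means was a log2 change of 1.87 after adding 1 FPKM (SE 0.11, adjusted p = 6.99e-08), and 3.29 with a pseudocount of 0.1 FPKM. WNT6 met the filter through the U251TR libraries alone. It was thus tested only because it was high there, and its p-value does not allow for this. WNT9A, another canonical ligand, rose in U251TR by 0.56 (adjusted p = 0.000275) from 1.41 ± 0.222 to 2.56 ± 0.0755 FPKM (SD, n = 3), and was listed at 0 in all 3 U87TR libraries and at 0.09 to 0.12 FPKM in U87MG.

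WNT7B fell in both resistant lines. It read 0.77, 0.81 and 0.98 FPKM in U251TR, below every U251MG library (log2 change -1.75, SE 0.18, adjusted p = 6.53e-06). In U87TR it read 59.48, 67.74 and 61.81 FPKM, below the 84.99 to 126.31 FPKM of U87MG, and fell by 0.80 (SE 0.18, adjusted p = 0.00605). The difference of 0.96 between these changes (SE 0.25, adjusted p = 0.00868) did not pass with a pseudocount of 5 FPKM (adjusted p = 0.855).

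WNT3, a canonical ligand, rose in both resistant lines. It read 1.61, 1.76 and 1.89 FPKM in U251MG and 3.67, 3.26 and 3.91 in U251TR. In the U87 pair it read 1.12, 1.38 and 0.97 FPKM in the parent and 2.27, 2.32 and 2.34 in U87TR. No resistant library overlapped its parent's, and the log2 changes were 0.74 (SE 0.10, adjusted p = 8.40e-05) and 0.62 (SE 0.10, adjusted p = 0.000914), with a difference of -0.12 (SE 0.15, adjusted p = 0.530). WNT11, which acts in cell polarity, passed in neither resistant line (log2 change 0.25 in U251TR, adjusted p = 0.280).

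**Figure D3:**
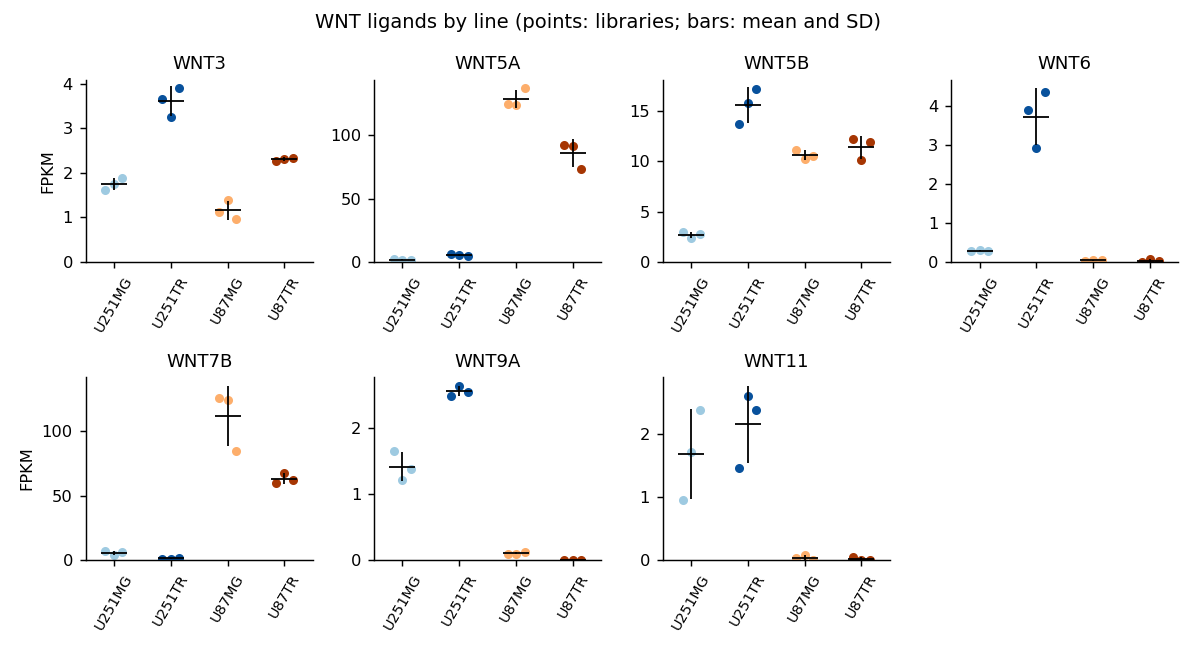
FPKM of the 7 tested WNT ligands in each library (points) by line, with the mean and SD of 3 libraries (bars) and a separate vertical scale for each gene. WNT5B stands at 13.70 to 17.23 FPKM in U251TR against 2.33 to 2.94 in U251MG, and WNT5A and WNT7B stand far higher in the U87 lines.

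Of the 10 tested receptors and co-receptors, 6 rose and 2 fell in U251TR (53.2% of all genes tested passed there), and 2 rose and 2 fell in U87TR (27.8%). The 10 FZD genes summed to 48.3 ± 4.86 FPKM in U251MG and 76.4 ± 0.870 in U251TR, and to 42.8 ± 2.77 in U87MG and 47.5 ± 1.70 in U87TR (SD, n = 3 each). FZD9 and FZD10 stayed at or below 0.04 FPKM in every library and were not tested.

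FZD7 rose in both resistant lines. It read 6.98, 7.33 and 7.58 FPKM in U251MG and 15.64, 14.77 and 16.06 in U251TR. In the U87 pair it read 1.51, 1.60 and 1.64 FPKM in the parent and 6.32, 5.49 and 5.34 in U87TR. All resistant libraries lay above their parents', with log2 changes of 0.99 (SE 0.09, adjusted p = 2.40e-06) and 1.38 (SE 0.09, adjusted p = 3.97e-07). As ratios of group means these were 2.12-fold and 3.61-fold. The difference of 0.39 (SE 0.13, adjusted p = 0.0258) is not firm: it was -0.035 with a pseudocount of 5 FPKM, and it missed the threshold in 4 of the fits that leave out 1 library (U251MG replicate 3, U251TR replicate 2, U87MG replicate 1 or U87TR replicate 1, adjusted p from 0.0525 to 0.0665).

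FZD6, the most abundant FZD receptor of both resistant lines, rose in both of them. It read 11.98, 11.65 and 12.49 FPKM in U251MG against 21.00, 21.55 and 18.58 in U251TR, and 8.69, 9.01 and 8.81 in U87MG against 15.66, 15.18 and 14.96 in U87TR. The log2 changes were 0.71 (SE 0.08, adjusted p = 1.34e-05) and 0.73 (SE 0.08, adjusted p = 3.15e-05), and their difference was 0.01 (SE 0.11, adjusted p = 0.928). FZD6 reached 32.1% ± 0.394 of the summed FZD level in U87TR (SD, n = 3) from 20.7% ± 1.22 in U87MG.

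FZD8 read 1.90, 2.25 and 1.43 FPKM in U251MG and 3.81, 4.17 and 3.88 in U251TR, a rise by 0.80 with no overlap (SE 0.16, adjusted p = 0.00106). In the U87 pair it read 9.03, 11.21 and 15.07 FPKM in the parent and 9.02, 9.82 and 9.08 in U87TR, which did not pass (log2 change -0.28, SE 0.16, adjusted p = 0.212), and the changes differed by -1.08 (SE 0.22, adjusted p = 0.00186). FZD1, FZD4 and FZD5 also rose in U251TR, by 0.78, 0.63 and 0.79, and did not pass in U87TR (log2 changes -0.03, 0.17 and -0.12). FZD3, known for axon guidance and cell polarity, fell by 0.63 in U251TR (adjusted p = 0.00120).

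FZD2 fell in U87TR (log2 change -0.61, adjusted p = 0.0274), a call that was lost in each of 4 fits leaving out 1 U87 library (U87MG replicate 1 or 2, U87TR replicate 2 or 3, adjusted p from 0.0702 to 0.0928). In U251TR it did not pass with all libraries (0.23, adjusted p = 0.327) and passed without U251MG replicate 2 (0.48, adjusted p = 0.00462), which read 12.29 FPKM where replicates 1 and 3 read 6.88 and 6.73.

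LRP6, the co-receptor that all 4 lines expressed, fell in both resistant lines. It read 17.13, 15.10 and 16.56 FPKM in U251MG and 11.50, 9.80 and 9.80 in U251TR. In the U87 pair it read 11.33, 10.88 and 8.01 FPKM in the parent and 6.30, 7.68 and 4.66 in U87TR. Neither pair overlapped, and the log2 changes were -0.60 (SE 0.16, adjusted p = 0.00679) and -0.63 (SE 0.16, adjusted p = 0.0119). The U87 call just missed the threshold without U87MG replicate 1 or replicate 2 (adjusted p = 0.0514 in each).

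**Figure D4:**
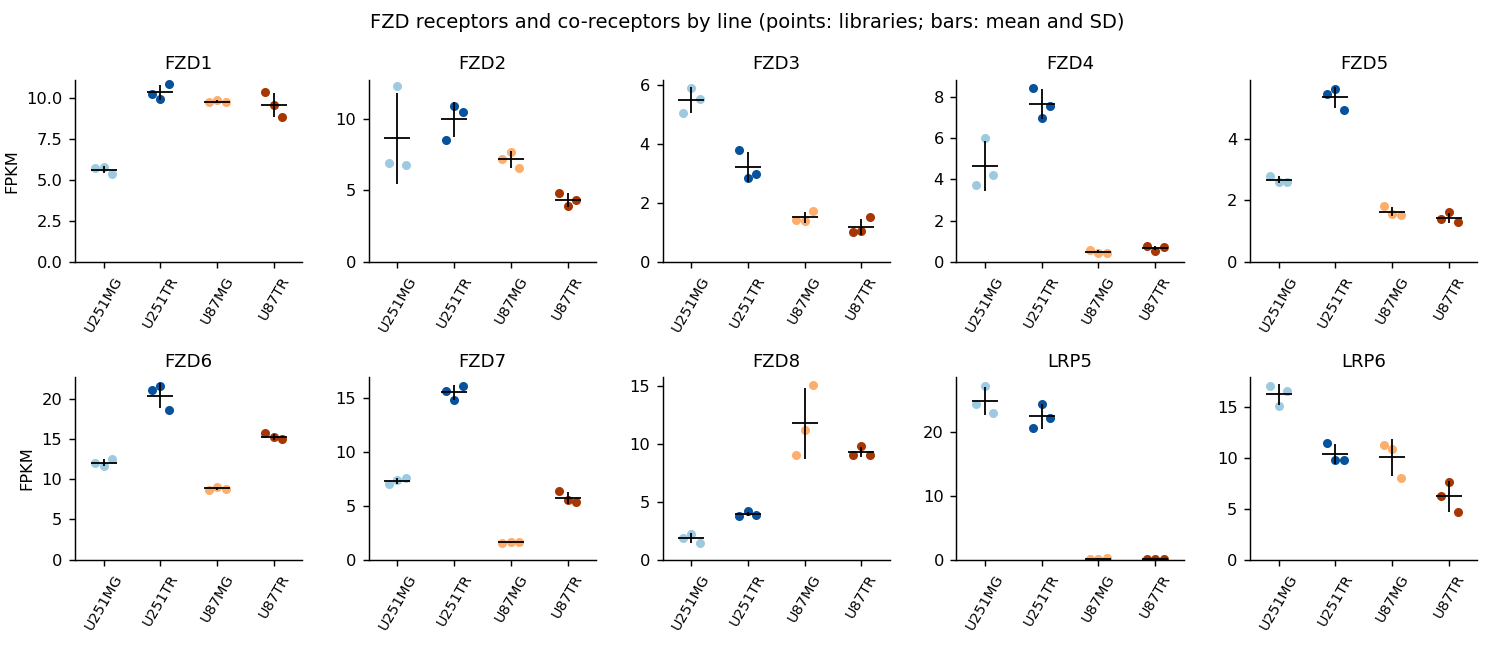
FPKM of the 10 tested FZD receptors and co-receptors in each library (points) by line, with the mean and SD of 3 libraries (bars) and a separate vertical scale for each gene. FZD6 and FZD7 lie higher and LRP6 lower in each resistant line than in its parent, and LRP5 lies near 0 in both U87 lines.

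Secreted antagonists bind WNT ligands (SFRP) or the LRP co-receptors (DKK1), and none of the 4 that were tested rose in a resistant line. The 8 DKK and SFRP genes summed to 239.1 ± 13.4 FPKM in U251MG and 110.3 ± 8.95 in U251TR, and to 29.5 ± 6.17 in U87MG and 7.14 ± 0.499 in U87TR (SD, n = 3 each). In U87MG most of the sum was DKK3, which is not a typical LRP inhibitor, at 59.2% ± 9.78 against 18.6% ± 3.90 in U87TR (SD, n = 3 each). DKK1 and SFRP1 fell in U251TR, and DKK3 and SFRP2 fell in U87TR. That is 2 of 4 in each line, where 53.2% of all genes tested passed in U251TR and 27.8% in U87TR. SFRP2 met the filter through the U87MG libraries alone. Of all genes tested, 33.6% rose in U251TR and 10.6% in U87TR. The fibroblast and pericyte markers did not move together in U87TR, as given above, and their part in the U87 values was not tested.

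DKK1, the best known LRP-binding inhibitor, read 185.28, 156.47 and 185.20 FPKM in U251MG and 60.02, 79.57 and 63.17 in U251TR. It fell with no overlap (log2 change -1.37, SE 0.32, adjusted p = 0.00360). In U87MG it read 14.15, 11.77 and 3.82 FPKM, replicate 3 standing low, and in U87TR 4.67, 5.58 and 5.13. With all libraries this did not pass (log2 change -0.68, SE 0.32, adjusted p = 0.147), and without U87MG replicate 3 it did (-1.19, adjusted p = 9.98e-05). The difference between the changes did not pass (0.70, adjusted p = 0.234), but did with a pseudocount of 5 FPKM (0.84, adjusted p = 0.0461).

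DKK3, a relative of DKK1 that does not act as a typical LRP inhibitor, was the gene of this set with the largest change in U87TR. It read 17.70, 17.61 and 15.84 FPKM in U87MG and 1.48, 1.59 and 0.94 in U87TR, a log2 change of -2.96 (SE 0.16, adjusted p = 9.85e-08) and a 12.8-fold ratio of the means. In the U251 pair it read 47.36, 29.35 and 43.06 FPKM in the parent and 34.34, 30.62 and 34.32 in U251TR. These overlap and did not pass (-0.24, adjusted p = 0.239), but passed without U251MG replicate 2 (-0.44, adjusted p = 0.00962). The changes differed between the lines by -2.72 (SE 0.23, adjusted p = 2.22e-06).

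SFRP1 read 15.12, 37.23 and 16.03 FPKM in U251MG, replicate 2 standing high, and 7.66, 8.48 and 7.97 in U251TR. It fell with a log2 change of -1.28 (SE 0.25, adjusted p = 0.000993), or -0.88 without that library (adjusted p = 9.59e-06). In the U87 lines it did not exceed 0.06 FPKM, and the difference between the changes (1.2, adjusted p = 0.0145) did not pass with a pseudocount of 0.1 FPKM (adjusted p = 0.151). SFRP2 showed the reverse pattern over the lines, with at most 0.06 FPKM in any U251 library, 2.25, 1.71 and 2.27 in U87MG and 0.22, 0.20 and 0.16 in U87TR. That log2 change of -1.36 (SE 0.10, adjusted p = 7.79e-07) was one at a low level. SFRP2 was tested only because it was high in U87MG, and its p-value does not allow for this.

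SFRP4 was not tested because only 2 libraries reached 1 FPKM. It read 0.36, 0.45 and 0.35 FPKM in U251MG and 1.2, 1.40 and 0.96 in U251TR, with no overlap, and in a fit with no filter it was higher in U251TR by 0.65 (adjusted p = 0.00330). DKK2, DKK4 and SFRP5 stayed at or below 0.55 FPKM.

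**Figure D5:**
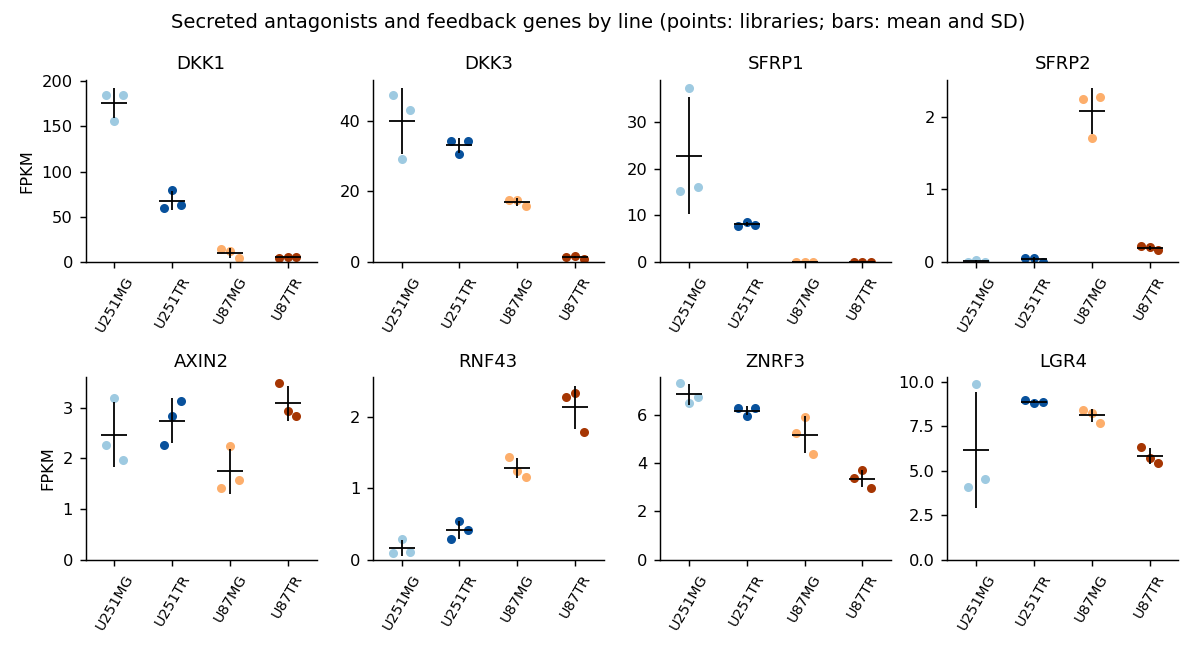
FPKM of the tested secreted antagonists (top) and of the R-spondin receptor and feedback genes (bottom) in each library (points) by line, with the mean and SD of 3 libraries (bars) and a separate vertical scale for each gene. DKK1 and SFRP1 lie lower in U251TR than in U251MG, DKK3 and SFRP2 lie lower in U87TR than in U87MG, and U251MG replicate 2 is the high point of SFRP1 and LGR4.

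Of the feedback genes, which canonical signalling itself is known to induce and which then limit it, AXIN2, RNF43 and ZNRF3 were tested. In U87TR AXIN2 and RNF43 rose and ZNRF3 fell. In U251TR none of these 3 passed in the reported fit, although RNF43 and ZNRF3 did in some other fits. AXIN2, the most widely used canonical target, read 1.41, 2.25 and 1.58 FPKM in U87MG and 3.49, 2.93 and 2.84 in U87TR, a rise by 0.58 (SE 0.16, adjusted p = 0.0171) that was lost without U87MG replicate 1 (adjusted p = 0.0705) or U87TR replicate 1 (adjusted p = 0.0670). In U251 it read 2.26, 3.19 and 1.96 FPKM in the parent and 2.27, 2.84 and 3.13 in U251TR, which overlap (0.12, adjusted p = 0.557). RNF43 and ZNRF3 are ligases that remove FZD receptors from the cell surface, and in U87TR they moved in opposite directions.

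RNF43 read 1.44, 1.24 and 1.16 FPKM in U87MG and 2.28, 2.33 and 1.79 in U87TR and rose by 0.46 (SE 0.12, adjusted p = 0.0123), which was lost without U87TR replicate 2 (adjusted p = 0.0511) and with a pseudocount of 0.1 FPKM (adjusted p = 0.105). In U251 it read 0.09, 0.29 and 0.10 FPKM in the parent and 0.29, 0.54 and 0.42 in U251TR. This just missed the threshold (log2 change 0.29, adjusted p = 0.0542). It passed in 6 other fits, among them those with a pseudocount of 0.1 FPKM (1.04, adjusted p = 0.0105) and rescaled to TPM (0.39, adjusted p = 0.0327). ZNRF3 read 5.26, 5.90 and 4.39 FPKM in U87MG and 3.37, 3.71 and 2.99 in U87TR, and fell (log2 change -0.50, SE 0.11, adjusted p = 0.00534). Its U251 values did not pass (7.34, 6.49 and 6.75 FPKM in the parent, 6.28, 5.96 and 6.29 in U251TR, log2 change -0.13, adjusted p = 0.344). They passed only after quantile normalization (-0.35, adjusted p = 0.0209).

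For LGR4, a receptor for R-spondins, the calls depended on U251MG replicate 2 and on the scaling and filter. It read 4.10, 9.91 and 4.51 FPKM in U251MG and 9.0, 8.81 and 8.88 in U251TR, a change of 0.55 that missed the threshold (SE 0.22, adjusted p = 0.0506). Without U251MG replicate 2 the change was 0.90 (adjusted p = 6.69e-06). With that library kept it passed after rescaling to TPM (0.68, adjusted p = 0.0259) and with a filter at 5 FPKM (adjusted p = 0.0448). LGR4 read 8.42, 8.25 and 7.68 FPKM in U87MG and 6.32, 5.73 and 5.44 in U87TR, with no overlap. That log2 change of -0.42 missed the threshold with all libraries (adjusted p = 0.185) and passed in the fit on the 6 U87 libraries (adjusted p = 0.0135) and without U251MG replicate 2 (adjusted p = 0.00205), whose spread the full fit shares. NKD1 was highest in the same library, at 2.05 FPKM against 0.70 and 0.44 in replicates 1 and 3, and both NKD1 and LGR5 were left untested as too low.

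CTNNB1, beta-catenin itself, was the most abundant of all 51 genes in U251TR and in U87TR. It read 132.73, 172.39 and 135.18 FPKM in U251MG, 189.05, 174.19 and 184.03 in U251TR, 116.92, 105.40 and 104.57 in U87MG and 109.87, 106.15 and 101.82 in U87TR. It rose in U251TR by 0.32 (SE 0.10, adjusted p = 0.0146), a small change whose call was lost with median-of-ratios factors (adjusted p = 0.0978), in a fit on the 6 libraries alone (0.0548) and without U251MG replicate 1 or 3 or U251TR replicate 1 (adjusted p from 0.0503 to 0.0663). RNA levels do not show the amount or the place of the protein, which canonical signalling controls by degradation.

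AXIN1, the scaffold of the destruction complex, read 7.12, 6.58 and 7.12 FPKM in U87MG and 4.51, 4.26 and 4.84 in U87TR and fell (log2 change -0.52, SE 0.10, adjusted p = 0.00242). LEF1 fell there as well (-0.65, SE 0.12, adjusted p = 0.00231), from 9.78, 8.95 and 8.17 FPKM to 4.92, 5.75 and 5.38. In U251TR neither passed (0.14 and 0.04). TCF7L1, known mainly as a repressor among these factors, rose in U251TR by 0.87 (SE 0.11, adjusted p = 3.35e-05) from 2.63, 3.27 and 2.63 FPKM to 6.32, 6.04 and 5.60, and stayed at or below 0.23 FPKM in the U87 lines.

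TCF7L2 read 25.28, 22.64 and 22.87 FPKM in U251TR, below every U251MG library, but missed the threshold (-0.37, SE 0.15, adjusted p = 0.0559); it passed in 7 of the other fits, among them the 1 with median-of-ratios factors (-0.50, adjusted p = 0.0181) and the 1 without U251MG replicate 2 (-0.48, adjusted p = 0.0194). TCF7 did not pass in either resistant line (0.31, adjusted p = 0.241 in U251TR and -0.19, adjusted p = 0.572 in U87TR), but passed in U251TR without U251MG replicate 2 (0.54, adjusted p = 0.0280). The prevailing factor of each line was kept: TCF7L2 made up 63.8% ± 1.92 of the TCF/LEF sum in U251TR, and TCF7 71.3% ± 2.89 of it in U87TR (SD, n = 3 each).

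Other genes of the pathway were read from 5 lists of 68 genes in all, of which 56 were tested. In U251TR 21 of the 56 rose and 21 fell, with a median log2 change of 0.02 against 0.10 over all genes tested, of which 53.2% passed. In U87TR 5 rose and 18 fell, with a median of -0.14 against -0.05 over all genes, of which 27.8% passed. The difference between the changes passed in 34 (47.6% of all genes), with the U87 change the higher in 11 and the lower in 23. The counts of the 5 lists below are to be read against these shares, since in U251TR more than 1 gene in 2 passed.

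Of 6 tested genes for WNT secretion and handling outside the cell, 3 rose and 2 fell in U251TR and 1 fell in U87TR. PORCN, the enzyme that attaches the lipid every WNT ligand needs for secretion, read 54.57, 26.08 and 46.95 FPKM in U251MG and 12.57, 12.64 and 13.43 in U251TR. It fell (log2 change -1.59, SE 0.20, adjusted p = 3.93e-05) and did not pass in U87TR (0.09, adjusted p = 0.784). WLS, which carries the lipid-modified ligands to the cell surface and was picked out after its values were seen, rose in U251TR by 0.67 (29.16, 24.14 and 24.92 FPKM to 38.27, 41.04 and 47.23, adjusted p = 0.000782) and fell in U87TR by 0.65 (132.62, 142.68 and 105.78 FPKM to 89.01, 79.96 and 72.21, adjusted p = 0.00261). The cell-surface proteoglycan GPC4 fell by 1.74 in U251TR (adjusted p = 1.61e-06) and the membrane inhibitor APCDD1 rose by 1.10 (adjusted p = 0.00133), and both were listed at 0 in every U87 library.

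Of 11 tested co-receptors and planar polarity genes, 7 rose and 3 fell in U251TR, and 2 rose and 1 fell in U87TR. PTK7, a polarity co-receptor, read 36.43, 42.02 and 35.45 FPKM in U251MG and 60.09, 60.35 and 63.00 in U251TR, and rose by 0.68 (adjusted p = 3.42e-05). In the U87 pair it read 7.25, 8.01 and 7.34 FPKM in the parent and 0.89, 0.95 and 0.93 in U87TR, a log2 change of -2.15 (adjusted p = 5.79e-09) and a difference between the lines of -2.83, the largest among the genes named from these lists. Of the polarity cadherins, CELSR2 rose in both lines (0.71, adjusted p = 0.0119, and 1.5, adjusted p = 0.000211) and CELSR1 rose in U251TR (1.17, adjusted p = 2.62e-06). The CELSR2 call in U251TR was lost without U251MG replicate 1 or 3.

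Of 16 tested genes listed with dishevelled and the destruction complex, 3 rose and 6 fell in U251TR, a share near that of all genes (53.2%). In U87TR none rose and 6 fell (27.8%). WTIP, which is on this list but is not itself a part of the complex, rose by 2.35 in U251TR (adjusted p = 1.38e-07). APC2 fell there by 1.18 (adjusted p = 1.95e-05). CSNK1D, a casein kinase of the pathway, fell by 0.91 in U87TR (adjusted p = 6.12e-07), and by 0.22 in U251TR (adjusted p = 0.0108), the latter lost after rescaling to TPM (adjusted p = 0.196).

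Of 13 tested nuclear partners of beta-catenin, 5 rose and 4 fell in U251TR, and 2 rose and 7 fell in U87TR. CTNNBIP1, which blocks the binding of beta-catenin to TCF, rose in both lines, by 1.37 (adjusted p = 1.50e-06) and 0.87 (adjusted p = 0.000185). It read 12.33, 12.90 and 12.06 FPKM in U251MG and 33.06, 30.94 and 37.33 in U251TR, and 4.91, 4.92 and 6.26 in U87MG and 9.41, 10.18 and 12.26 in U87TR. The co-repressors TLE3 and TLE4 passed in U87TR in opposite directions (0.81, adjusted p = 0.00479, and -0.82, adjusted p = 0.00409).

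Of 10 tested genes often cited as beta-catenin targets, 3 rose and 6 fell in U251TR and 1 rose and 3 fell in U87TR. CCND1, cyclin D1, fell in both lines: 183.99, 116.37 and 164.08 FPKM in U251MG became 39.25, 41.68 and 41.25 in U251TR (-1.88, adjusted p = 5.07e-07), and 266.98, 268.65 and 239.97 in U87MG became 116.33, 143.08 and 138.37 in U87TR (-0.96, adjusted p = 0.000354). TWIST1 fell in U251TR (log2 change -1.96, adjusted p = 2.14e-08), and BAMBI, also known as a decoy receptor of the TGF-beta family, rose in both lines (1.32, adjusted p = 4.04e-07, and 0.60, adjusted p = 0.000734).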

How the data were processed

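Total RNA of 12 libraries, 3 from each of 4 lines, was sequenced as paired reads on an Illumina HiSeq, per the labels. Replicates were numbered as in the labels. STAR 2.5.2b, RSEM 1.2.31 and build hg19 are named in the submitters' processing notes, whereas the design text names hg38. The authors deposited 1 table of gene values by symbol, taken here as FPKM. No header or label states this unit: it was inferred from values that sum to between 695282 and 785754 per library. The sum of value times the length of the canonical transcript was 1.59 to 1.74 times the sum that FPKM implies if all fragments lie in matched genes, so the unit stays uncertain. If the values were partial TPM, each library would change by 1 factor, which the TPM rescaling covers. The 27 symbols turned into dates were left out, and 31654 genes remained.

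The 15449 genes that reached 1 FPKM in 3 or more libraries were fitted on log2(FPKM + 1) with limma 3.58.1 in R 4.3.3, 1 mean per line over all 12 libraries, with a variance trend and robust moderation. Tests were two-sided, with Benjamini-Hochberg adjustment and a threshold of 0.05. The fit was tested on simulated data. The comparisons were each resistant line against its parent, the difference between these changes, and U87MG against U251MG. Fits with other pseudocounts, filters and scalings, a replicate block, the 6 libraries of a comparison alone, no variance trend, and each library left out in turn are in the closing section.

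The members and the gene lists were chosen with earlier results of these data known. Full values are given for members that passed with a log2 change or difference of at least 1 and for the 2 with the highest mean in each role, and up to 3 genes with the largest changes are named from each other list. Members described in full beyond this rule (WNT3, WNT9A, FZD2, LRP6, SFRP4, AXIN2, RNF43, AXIN1, LEF1 and TCF7L1) and WLS were chosen after their values were seen.

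Cell type marker lists had these further summed levels. Of 5 neuron markers, the sum was 23.48 to 25.89 FPKM in U87MG and 27.29 to 30.70 in U87TR. Of 5 epithelial markers it was 6.12 to 9.76, 11.15 to 12.34, 1.19 to 1.47 and 3.16 to 3.53 FPKM in U251MG, U251TR, U87MG and U87TR. Of 4 endothelial markers it was 1.64 to 2.58 FPKM in U87MG and 0.66 to 0.74 in U87TR. The glioma and neural list summed to 2115 to 3421, 4022 to 4813, 5590 to 6604 and 4892 to 5244 FPKM in the 4 lines in that order, and the immune list to 2.31 to 2.92 FPKM in U251MG and 3.67 to 7.04 in U251TR.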

Additional observations from a re-analysis of the deposited data

Results flagged for a closer look

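For 18 of the 31 tested WNT pathway genes, the change with resistance differed between the lines by the test of the difference itself, where 47.6% of all genes tested passed. It also did for the 15 named genes of the other lists. These were picked for their large resistance changes in the same data, which favours passing this test. Over all tested genes of those lists 34 of 56 passed. Values are the U87 change minus the U251 change on the log2(FPKM + 1) scale, so a negative value means a higher change in U251. Among the ligands the differences were -1.89 for WNT5A, -2.08 for WNT5B, -1.88 for WNT6, 0.96 for WNT7B and -0.70 for WNT9A. Among the receptors they were -0.81 for FZD1, -0.84 for FZD2, -0.91 for FZD5, 0.39 for FZD7 and -1.08 for FZD8. Among the antagonists they were -2.72 for DKK3, 1.2 for SFRP1 and -1.40 for SFRP2, and LGR4 had -0.97. Among the intracellular genes they were -0.66 for AXIN1, -0.36 for CTNNB1, -0.69 for LEF1 and -0.82 for TCF7L1. The CTNNB1 difference (adjusted p = 0.0475) is not firm. It was lost with median-of-ratios factors (adjusted p = 0.326) and after quantile normalization (0.133). It was also lost in every fit leaving out 1 library except the fit without U251MG replicate 2. WNT6, WNT9A, SFRP1 and TCF7L1 were near 0 in both U87 lines and SFRP2 in both U251 lines, so their differences restate the change in the other line.

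Of the other genes, PTK7 had -2.83, CELSR1 -1.18, CELSR2 0.79, WTIP -2.40, APC2 1.17, CSNK1D -0.69, CTNNBIP1 -0.50, TLE4 -0.69, TLE3 0.69, TWIST1 2.15, CCND1 0.91, BAMBI -0.72 and PORCN 1.68. GPC4 (1.74) and APCDD1 (-1.10) were listed at 0 in every U87 library, so their values restate the U251 change. The differences of TLE4, CELSR2, TLE3 and CTNNBIP1 missed the threshold in 12, 11, 10 and 9 of 21 other fits, in that order.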

How the results depend on the processing

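The number of tested WNT genes called stayed within 1.5 times the reported value in every fit tried. Leaving out 1 library at a time, it ran from 17 to 24 in U251TR (24 without U251MG replicate 2), 11 to 15 in U87TR, 15 to 20 for the difference and 27 to 29 between the parents. The share of all genes tested that passed in these fits ran from 47.0% to 58.0%, 19.5% to 36.4%, 42.3% to 54.5% and 68.2% to 74.5%, in that order. Of the genes called, 17 of 18, 10 of 14, 10 of 18 and 26 of 28 were called in every fit that tested them (the filter at 5 FPKM left 23 of the 31 to test). The calls lost in some fit were CTNNB1 in U251TR, FZD2, LRP6, AXIN2 and RNF43 in U87TR, CTNNB1, FZD2, FZD7, LEF1, LGR4, SFRP1, TCF7L1 and WNT7B for the difference, and ZNRF3 and WNT6 between the parents. The FZD7 difference of 0.39 was -0.035 with a pseudocount of 5 FPKM, the only called value of a WNT gene to change sign. Deviations of same-numbered replicates had correlations from -0.06 to 0.12, and those of differently numbered ones from -0.11 to 0.10. The numbers thus gave no sign of pairing, but correlations over 3 libraries a line cannot exclude it. With a replicate block 18, 14, 17 and 28 WNT genes were called, and the CTNNB1 difference was lost (adjusted p = 0.0622), as was that of CELSR2 among the other named genes (adjusted p = 0.0543). Depth is unknown, so calls below about 1 FPKM carry an error that cannot be given.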
